A study of Mus musculus with 6 samples.

Results

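The TNF superfamily was examined in bulk RNA-seq of CD11b+ cells purified from TC1 tumors grown under the skin of MCT2 KO and MCT2 CO mice. The members were the genes of the count table with the symbol *Tnf* or a symbol that starts with Tnfsf (ligands) or Tnfrsf (receptors) and a number. They numbered 32 of the 25701 genes listed, of which 12 were ligands and 20 were receptors. Superfamily genes that carry other names, such as *Cd40* and *Fas*, did not fall under this rule and are given apart.

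MCT2, encoded by *Slc16a7*, is a plasma membrane transporter of lactate, pyruvate and ketone bodies. The mice of both groups were young males of the MCT2loxP/loxP; Cre+ genotype on a C57BL/6 background, which carry floxed MCT2 and an mCre-Tg transgene activated by tamoxifen, and they were 8 weeks old at treatment. MCT2 KO mice received tamoxifen and MCT2 CO mice received vehicle, so that the deletion and the exposure to tamoxifen and active Cre cannot be told apart. The deletion is meant to be systemic, so the CD11b+ cells and all other host cells could carry it, while the injected TC1 tumor cells, a mouse lung epithelial tumor line, could not. Tumors grew for 24 days in the lower right flank, although GEO's tissue label is lung. Each group had 3 samples, named MCT2 CO replicates 1 to 3 and MCT2 KO replicates 1 to 3. The labels do not say that each sample is a separate mouse, so p-values measure only the spread between these samples, which may be technical. In addition, a bulk level cannot separate fewer cells of a type from less RNA per cell.

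TNF superfamily ligands are mostly trimeric membrane proteins that bind receptors on neighbouring cells, and several are cut from the cell surface by metalloproteases. Their receptors signal through TRAF adaptors to NF-kB and MAP kinases, or through a cytoplasmic death domain to caspases. Macrophages are a main source of TNF in inflamed tissue and in tumors, and they carry both TNF receptors. Other ligands of the family, such as OX40 ligand and GITR ligand, are costimulators that myeloid cells present to T cells, while BAFF and APRIL act on B cells and plasma cells.

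Total counts ranged from 24863611 to 31713704 per sample, and 13485 genes passed the filter on low counts. *Slc16a7* was measured at 16, 11 and 11.2 CPM in MCT2 CO and at 8.22, 4.97 and 5.34 CPM in MCT2 KO, where CPM is the count scaled to library size after TMM normalization. The groups did not overlap, with a log2 fold change of -1.05 (SE 0.24, edgeR adjusted p = 0.370). Its adjusted p was 0.414 in limma-voom and 0.00862 in DESeq2 run on all genes that had any count. Macrophage and monocyte markers were abundant, with a summed level of 4910 to 6376 CPM in MCT2 CO and 5918 to 9001 CPM in MCT2 KO. *Itgam*, which encodes CD11b, had 1 count in all 6 samples together, and 99.14% of its exonic bases lie inside the span of *Gm49368* in GENCODE M21. The counting was over whole gene spans, and genes inside another gene's span lose reads by it. Markers of neutrophils, T cells, B cells, NK cells, endothelial cells and fibroblasts were detected as well. Neutrophil markers, 8 of 10 above the filter, summed to 110 to 126 CPM in MCT2 CO and 115 to 199 CPM in MCT2 KO. Of the 8, 7 had a log2 fold change above 0 and 1 below. Without overlap, 5 were higher in MCT2 KO, against 7.07% of all genes. The part of neutrophil content in the levels of the members was not tested. MCT2 CO replicate 3 had the highest level for 24.9% of the genes tested and the lowest for 23.2%, more than any other sample, and MCT2 KO replicate 2 had the lowest for 22.7%.

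The promoters of *Tnf* and *Tnfrsf12a* are shown because these genes were the most abundant ligand and receptor per exon length. Each stretch holds the 200 bases before the RefSeq transcription start on GRCm38.p6, read 5′ to 3′ on the minus strand, on which both genes lie. They span chr17:35202008-35202207 for *Tnf* and chr17:23677450-23677649 for *Tnfrsf12a*. Capitals mark matches to the GC box GGGCGG on either strand and to the TATA box TATAAA on the strand shown.
Tnf: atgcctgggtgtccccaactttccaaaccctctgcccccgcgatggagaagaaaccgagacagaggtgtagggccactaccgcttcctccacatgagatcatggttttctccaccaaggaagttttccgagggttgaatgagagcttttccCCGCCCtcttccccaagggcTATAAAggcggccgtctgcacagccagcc
Tnfrsf12a: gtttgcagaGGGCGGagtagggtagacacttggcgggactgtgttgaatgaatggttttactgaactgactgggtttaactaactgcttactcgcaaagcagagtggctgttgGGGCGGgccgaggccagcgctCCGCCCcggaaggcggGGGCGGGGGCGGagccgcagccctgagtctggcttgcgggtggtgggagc
The *Tnf* stretch held 1 GC box and 1 TATA box, which began 49 and 29 bases before the start. The *Tnfrsf12a* stretch held 5 GC boxes and no TATA box of these letters. Over whole RefSeq promoter windows (250 bases before to 50 after the start), GGGCGG was found in 35.7% of 32851 windows and in 13 of the 25 members with a window, and TATAAA in 8.32% of windows and in 3 members, *Tnf*, *Tnfrsf17* and *Tnfsf18*. The NF-kB consensus, searched on both strands, was found in 4.51% of all windows and in those of *Tnfrsf8* and *Tnfrsf9*. The AP-1 motif TGANTCA, also searched on both strands, was found in 7.81% of all windows and in those of 5 members, *Tnfrsf8*, *Tnfrsf9*, *Tnfsf13*, *Tnfsf13b* and *Tnfsf14*. A match is a run of letters and not a measured binding site.

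The members lie on 11 chromosomes, several of them in neighbouring pairs (GENCODE M21, GRCm38). Chromosome 4 holds 9 of the 32, among them *Tnfrsf1b* and *Tnfrsf8* 20.3 kb apart, *Tnfrsf4* and *Tnfrsf18* 9.55 kb apart, and the ligands *Tnfsf15* and *Tnfsf8* 86.2 kb apart. The decoy receptors *Tnfrsf26*, *Tnfrsf22* and *Tnfrsf23* follow each other on chromosome 7 with gaps of 6.08 and 16.1 kb. *Tnfsf4* and *Tnfsf18*, which encode OX40 ligand and GITR ligand, lie 76.2 kb apart on chromosome 1.

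Of the 12 ligands, 10 passed the filter on low counts, and 15 of the 20 receptors did. *Tnfsf12* (TWEAK) and *Tnfsf13* (APRIL) had 0 counts in all 6 samples, and all of their exonic bases lie inside the span of *Tnfsfm13*, a readthrough gene that joins them. *Tnfsfm13* itself was measured at 4.03 to 6.10 CPM in MCT2 CO and at 3.74 to 5.95 CPM in MCT2 KO, with a log2 fold change of -0.09 (SE 0.23). The 0 counts of *Tnfsf12* and *Tnfsf13* therefore cannot be read as absence of these ligands. *Tnfrsf9* (CD137), with 94.42% of its exonic bases inside the span of *Camta1*, had 2 to 12 counts per sample. *Tnfrsf11b* (osteoprotegerin) had 0 to 4 counts, *Tnfrsf17* (BCMA) 0 to 3 and *Tnfrsf19* (TROY) 2 to 12, and none of these 3 overlaps another gene in its exons.

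No member was called between MCT2 KO and MCT2 CO. A call required that the adjusted p not exceed 0.05 and that the log2 fold change be 0.58 or more in size. By this rule the quasi-likelihood test of edgeR called 0 of the 13485 genes tested (0%), 0 of 10 ligands and 0 of 15 receptors. At an unadjusted p under 0.05 stood 1264 genes (9.37%), among which were 1 ligand and 3 receptors. *Tnfsf11* and *Tnfrsf14* had higher levels in MCT2 KO, as did 3.77% of all genes at this p, and *Tnfrsf12a* and *Tnfrsf25* had lower levels, as did 5.6%. DESeq2, run on the 18508 genes that had any count, called 95 (0.513%) and no member, and limma-voom called none of the 13485. The smallest adjusted p of any member in edgeR was 0.370.

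Ligands and receptors were evenly divided in the sign of the log2 fold change. Values above 0 were found for 5 of the 10 ligands and for 7 of the 15 receptors, against 50.1% of all genes. The median log2 fold change was 0.08 over the ligands and -0.03 over the receptors, against 0.00 over all genes tested. The values ran from -0.39 to 0.90 among ligands and from -1.53 to 0.56 among receptors. In 4 of the 25 members tested, the levels of the groups did not overlap, against 15.8% of all genes. Of these, *Tnfsf11* had higher levels in MCT2 KO, against 7.07% of all genes, and *Tnfrsf12a*, *Tnfrsf22* and *Tnfrsf25* had lower levels, against 8.77%.

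**Figure D1:**
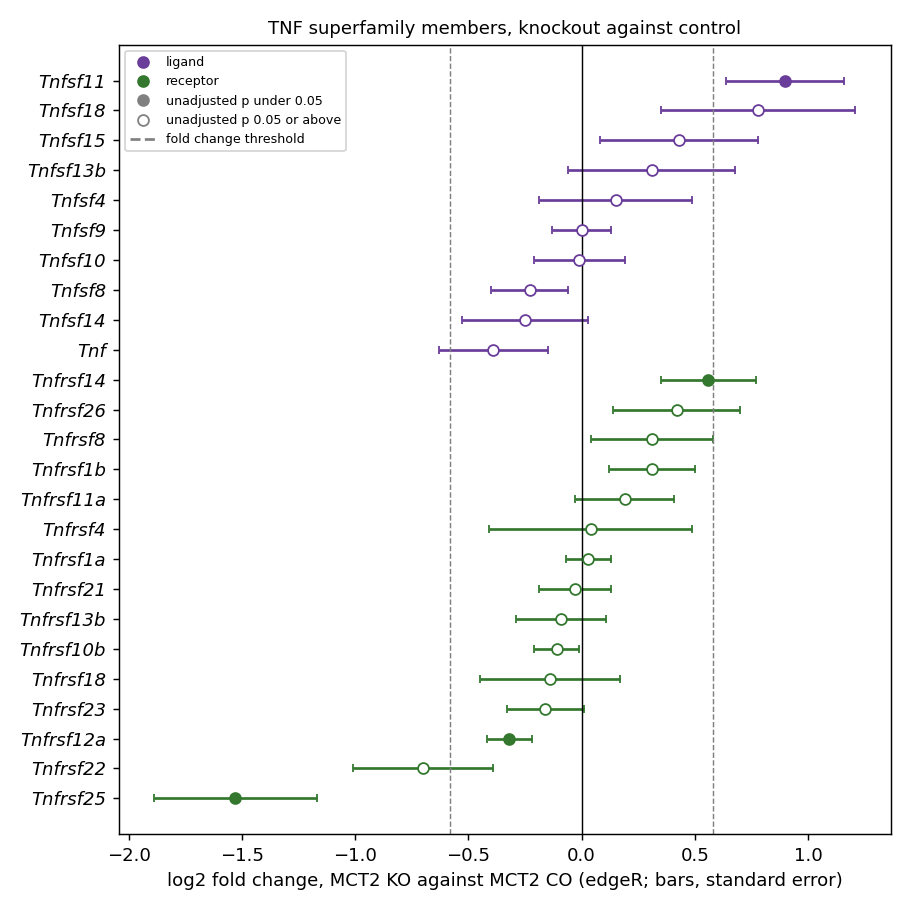
Log2 fold change (MCT2 KO minus MCT2 CO, edgeR) of the 10 ligands and 15 receptors that passed the filter, with bars of 1 standard error, filled points for an unadjusted p under 0.05 and dashed lines at the fold change threshold. The ligand values run from -0.39 (*Tnf*) to 0.90 (*Tnfsf11*) and the receptor values from -1.53 (*Tnfrsf25*) to 0.56 (*Tnfrsf14*), and no member passed the adjusted threshold.

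Among the ligands, *Tnf* was the most abundant per exon length in every sample. *Tnf* encodes the inflammatory cytokine TNF, the ligand of TNFR1 and TNFR2. Its level, as CPM divided by exonic length in kb, had a mean of 90.8 CPM per kb over the 6 samples. It made up 64.0% to 76.0% of the summed ligand level, in which *Tnfsf12* and *Tnfsf13* enter as 0 and could not be assessed. *Tnfsf9* (CD137 ligand, a costimulator of T cells) came next at 17.3 CPM per kb and its range overlapped neither that of *Tnf* nor that of the ligand below it. Below these, *Tnfsf8* (CD30 ligand) averaged 5.48, *Tnfsf13b* (BAFF) 4.16, *Tnfsf14* (LIGHT) 3.03, *Tnfsf10* (TRAIL, a ligand of death receptors) 2.34, *Tnfsf4* (OX40 ligand) 1.55, *Tnfsf15* (TL1A) 1.15 and *Tnfsf11* (RANKL) 0.66 CPM per kb, and the ranges of neighbours in this order overlapped. *Tnfsf18* (GITR ligand) was the lowest ligand that passed the filter, at 0.30 CPM per kb. Since reads in introns were counted too, these levels per exon length are approximate.

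**Figure D2:**
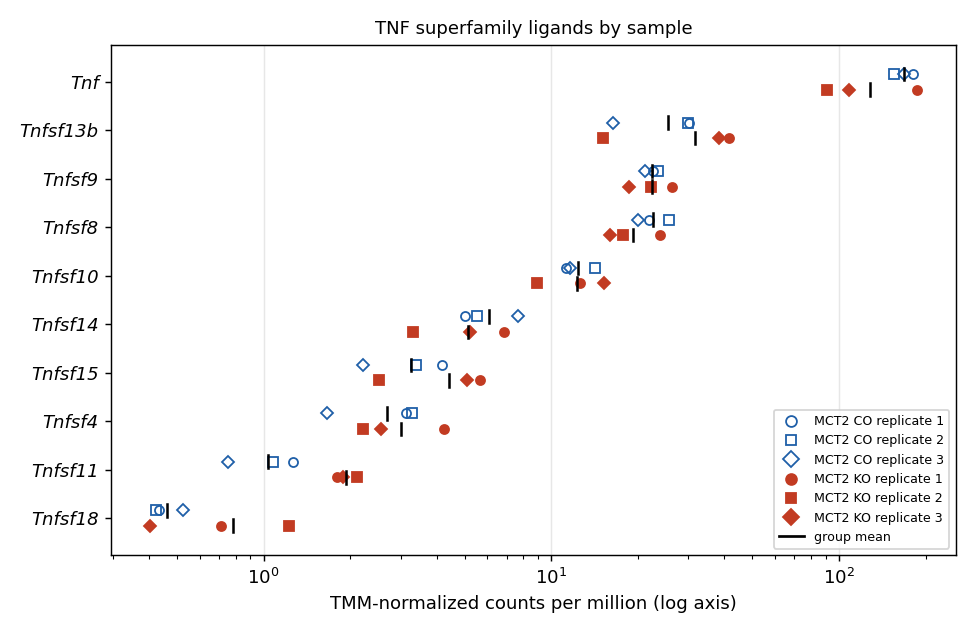
CPM (log axis, not divided by length) of the 10 ligands that passed the filter, with 1 point per sample for 3 MCT2 CO and 3 MCT2 KO samples and a black bar for each group mean. The *Tnf* points lie between 90.7 and 187 CPM, above all other ligands, and the *Tnfsf11* points of MCT2 KO lie above those of MCT2 CO.

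*Tnf* was measured at 181, 156 and 169 CPM in MCT2 CO and at 187, 90.7 and 108 CPM in MCT2 KO. MCT2 KO replicate 1 had the highest level of all 6 samples, while replicates 2 and 3 lay below every MCT2 CO sample. The means were 169 ± 12.4 and 129 ± 51.3 CPM (SD, n = 3 each), and the log2 fold change was -0.39 (SE 0.24, edgeR adjusted p = 0.643). Without MCT2 KO replicate 1 the log2 fold change was -0.76 (edgeR adjusted p = 0.238), and without MCT2 KO replicate 2 it was -0.19 (edgeR adjusted p = 0.719). The size of the difference in *Tnf* therefore rests on which MCT2 KO sample is used, and none of the 6 fits without a single sample, nor the fit without MCT2 CO replicate 3 and MCT2 KO replicate 2, passed the adjusted threshold.

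*Tnf* is a rapidly induced transcript, as are the early response genes, which cells switch on soon after a stimulus or during tissue dissociation. A list of 16 genes held early response genes, such as *Fos*, *Jun* and *Egr1*, and the heat shock genes *Hspa1a*, *Hspa1b*, *Hspa8* and *Dnajb1*. All 16 passed the filter and summed to 15686 to 18643 CPM in MCT2 CO and 13180 to 16192 CPM in MCT2 KO. As with *Tnf*, MCT2 KO replicates 2 and 3 lay below all MCT2 CO samples and MCT2 KO replicate 1 did not. Of the 16, 14 had a log2 fold change below 0, and 8 were lower at an unadjusted p under 0.05, against 5.6% of all genes. These 8 were *Junb*, *Egr2*, *Egr3*, *Ier2* and the heat shock genes. *Fos*, *Jun* and *Egr1* were not among them, at log2 fold changes of -0.01, -0.40 and -0.20. The part of what these 16 genes reflect in the *Tnf* values was not tested.

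*Tnfsf11* encodes RANKL, the cytokine that drives osteoclast formation and dendritic cell survival. It was measured at 1.27, 1.08 and 0.753 CPM in MCT2 CO and at 1.8, 2.12 and 1.89 CPM in MCT2 KO. All MCT2 KO samples lay above all MCT2 CO samples, with a log2 fold change of 0.90 (SE 0.26, edgeR unadjusted p = 0.00817, adjusted p = 0.426). These levels rest on 20 to 38 counts in MCT2 CO and 43 to 69 counts in MCT2 KO. Omitting single samples gave log2 fold changes of 0.72 to 1.08, and omitting MCT2 CO replicate 3 and MCT2 KO replicate 2 together gave 0.65. The receptor of RANKL, *Tnfrsf11a* (RANK), was measured at 57.9, 39.1 and 37.0 CPM in MCT2 CO and at 65.0, 40.3 and 47.6 CPM in MCT2 KO. Replicate 1 was the highest of each group and the groups overlapped, with a log2 fold change of 0.19 (SE 0.22).

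*Tnfsf13b* encodes BAFF, a survival factor for B cells that myeloid cells secrete. It was measured at 30.1, 29.8 and 16.4 CPM in MCT2 CO and at 41.6, 15.1 and 38.3 CPM in MCT2 KO. MCT2 CO replicate 3 and MCT2 KO replicate 2 had similar low levels, and the other 4 samples were all higher. With all samples the log2 fold change was 0.31 (SE 0.37, edgeR adjusted p = 0.820), and it was 0.65 (edgeR adjusted p = 0.400) without MCT2 KO replicate 2 and 0.08 without MCT2 CO replicate 3. The 8 dendritic cell markers, all above the filter, had their lowest sums in the same samples, 361 CPM in MCT2 CO replicate 3 and 469 CPM in MCT2 KO replicate 2, against 611 to 983 CPM in the other 4. Most of this sum was *Itgax*, which macrophages express too, at 305 CPM in MCT2 CO replicate 3 and 439 CPM in MCT2 KO replicate 2. *Flt3* and *Siglech*, by contrast, were highest of all 6 samples in MCT2 CO replicate 3, at 7.83 and 4.18 CPM. The part of macrophage or dendritic cell content in the *Tnfsf13b* values was not tested.

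The BAFF and APRIL receptors are carried mainly by B cells and plasma cells. *Tnfrsf13b* (TACI) was measured at 13.5 to 15.7 CPM in MCT2 CO and 10.6 to 18.6 CPM in MCT2 KO, with a log2 fold change of -0.09 (SE 0.20). *Tnfrsf13c* (BAFF receptor), below the filter with all 6 samples, had 11, 19 and 16 counts in MCT2 CO and 5, 9 and 6 counts in MCT2 KO. All MCT2 KO samples lay below all MCT2 CO samples, at 0.210 to 0.276 CPM against 0.367 to 0.731 CPM, and the exact two-sided permutation p was 0.1, the smallest that 3 against 3 samples allow. Without the filter its log2 fold change was -1.18 in edgeR (SE 0.44, unadjusted p = 0.0228, adjusted p = 0.541) and -1.2 in DESeq2 (SE 0.65, adjusted p = 0.611). It passed the filter in 4 of the 6 fits that omit a single sample, with values of -1.43 to -1.09. All of those fits kept MCT2 CO replicates 2 and 3, its highest samples, through which it passed. This range is therefore no independent check of the difference. The B-cell list, with 8 of 10 markers above the filter, summed to 86.4 to 99.1 CPM in MCT2 CO and 29.9 to 118 CPM in MCT2 KO. Most of this sum was *Ighm*, with a log2 fold change of -0.09. Of the 8, 2 were above 0, *Cd22* at 0.21 and *Fcrla* at 0.27, and 6 below. *Ms4a1*, *Cd79a* and *Blk* were lower in MCT2 KO without overlap, against 8.77% of all genes, with log2 fold changes of -1.36, -2.02 and -1.87. The 5 plasma cell markers above the filter were *Igkc* at -2.04, *Jchain* at -1.76, *Xbp1* at -0.06, *Sdc1* at 0.03 and *Prdm1* at 0.18. The part of B-cell or plasma cell content in the *Tnfrsf13c* counts was not tested.

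*Tnfsf9* was measured at 22.5, 23.5 and 21.2 CPM in MCT2 CO and at 26.2, 22.3 and 18.6 CPM in MCT2 KO. The highest and the lowest of these levels were both in MCT2 KO, and the means were 22.4 CPM in each group with a log2 fold change of 0.00 (SE 0.13). About 11.5% of the 50-base words of *Tnfsf9* transcripts occur also in *Gm11110*, so its counts are uncertain. Its standard error was the smallest among the ligands.

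The other ligands had log2 fold changes less than 2 standard errors from 0. *Tnfsf18* was measured at 0.434, 0.423 and 0.527 CPM in MCT2 CO and at 0.713, 1.23 and 0.402 CPM in MCT2 KO. The highest and the lowest level were both in MCT2 KO, and the log2 fold change was 0.78 (SE 0.43) with all samples but 0.27 without MCT2 KO replicate 2, which held 40 counts against 10 to 17 in the other samples of the series. *Tnfsf15* had a log2 fold change of 0.43 (SE 0.35), *Tnfsf4* of 0.15 (SE 0.34), *Tnfsf10* of -0.01 (SE 0.20), *Tnfsf8* of -0.23 (SE 0.17) and *Tnfsf14* of -0.25 (SE 0.28). The groups overlapped for each of these ligands.

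The receptors were headed by *Tnfrsf12a*, which encodes Fn14, the TWEAK receptor that is induced by growth factors and tissue injury. Its mean level was 128 CPM per kb, and it made up 33.5% to 49.8% of the summed receptor level. *Tnfrsf1a* (TNFR1, the death-domain receptor of TNF) followed at 61.4 CPM per kb and *Tnfrsf1b* (TNFR2, without a death domain) at 47.7 CPM per kb. The ranges of *Tnfrsf1a* and *Tnfrsf1b* overlapped, but *Tnfrsf1a* was above *Tnfrsf1b* in 6 of 6 samples. *Tnfrsf14* came next at 19.5 CPM per kb and did not overlap *Tnfrsf1b*.

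Below *Tnfrsf14*, the receptors formed a graded series in which neighbours overlapped. *Tnfrsf10b* (the TRAIL death receptor) averaged 12.4 CPM per kb, *Tnfrsf23* (a TRAIL decoy receptor) 10.3, *Tnfrsf11a* 7.99, *Tnfrsf21* (DR6) 5.45, *Tnfrsf13b* 5.09, *Tnfrsf18* (GITR) 3.35, *Tnfrsf22* (a second TRAIL decoy) 2.07 and *Tnfrsf4* (OX40) 1.73. *Tnfrsf26* averaged 0.58, *Tnfrsf25* (DR3) 0.53 and *Tnfrsf8* (CD30) 0.42 CPM per kb. The receptors that did not pass the filter lay between 0.03 and 0.20 CPM per kb.

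**Figure D3:**
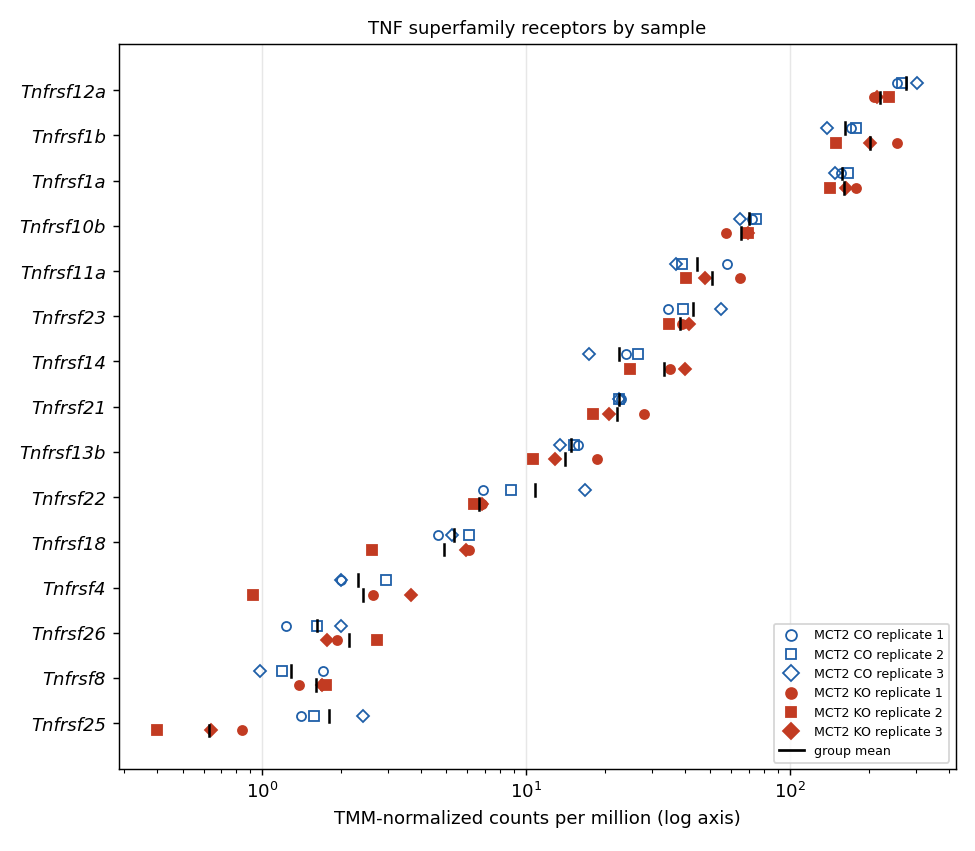
CPM (log axis, not divided by length) of the 15 receptors that passed the filter, with 1 point per sample for 3 MCT2 CO and 3 MCT2 KO samples and a black bar for each group mean. *Tnfrsf12a*, *Tnfrsf1a* and *Tnfrsf1b* lie above all other receptors, and the MCT2 KO points of *Tnfrsf25* all lie below its MCT2 CO points.

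*Tnfrsf12a* was measured at 255, 266 and 305 CPM in MCT2 CO and at 208, 238 and 215 CPM in MCT2 KO. The groups did not overlap, with means of 276 ± 26.4 and 220 ± 15.9 CPM (SD, n = 3 each). In edgeR the log2 fold change was -0.32 (SE 0.10, unadjusted p = 0.0133, adjusted p = 0.433), and omitting single samples gave -0.38 to -0.24. Fibroblasts carry Fn14 too, and the 6 fibroblast markers, all above the filter, summed to 2015 to 3295 CPM in MCT2 CO and 1680 to 1790 CPM in MCT2 KO. Both the fibroblast sum and *Tnfrsf12a* were highest in MCT2 CO replicate 3. All 6 fibroblast markers had a log2 fold change below 0, and 3 were lower at an unadjusted p under 0.05, against 5.6% of all genes. The authors state that telling TC1 cells from host stromal cells would need further analyses. The part of fibroblast or TC1 cell content in the *Tnfrsf12a* values was not tested.

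*Tnfrsf1a* was measured at 157, 167 and 148 CPM in MCT2 CO and at 178, 142 and 163 CPM in MCT2 KO. The groups overlapped, with a log2 fold change of 0.03 (SE 0.10). *Tnfrsf1b* was measured at 171, 178 and 139 CPM in MCT2 CO and at 255, 150 and 201 CPM in MCT2 KO. MCT2 KO replicates 1 and 3 were above every MCT2 CO sample and replicate 2 was within their range, with a log2 fold change of 0.31 (SE 0.19, edgeR adjusted p = 0.643). Without MCT2 KO replicate 2 it was 0.49 (edgeR adjusted p = 0.369), and without MCT2 KO replicate 1 it was 0.11.

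Ratios of members within a sample do not depend on the scaling between samples, and 6 were computed after the counts had been seen. The ratio of *Tnf* to *Tnfrsf1b*, in CPM, was 1.06, 0.877 and 1.22 in MCT2 CO and 0.734, 0.606 and 0.539 in MCT2 KO. All MCT2 KO samples lay below all MCT2 CO samples, although neither gene alone separated the groups. The exact two-sided permutation p was 0.1, the smallest possible, and 0.3 after Benjamini-Hochberg adjustment over the 6 ratios. The ratio of *Tnf* to *Tnfrsf1a* was 1.16, 0.935 and 1.14 in MCT2 CO and 1.05, 0.640 and 0.662 in MCT2 KO, with overlap (exact permutation p = 0.2, adjusted 0.4). The ratio of *Tnfrsf1b* to *Tnfrsf1a* was 1.09, 1.07 and 0.935 in MCT2 CO and 1.43, 1.06 and 1.23 in MCT2 KO, with overlap (exact permutation p = 0.3, adjusted 0.45). The ratios of *Tnfsf13b* to *Tnfrsf13b* and of *Tnfsf9* to *Tnfrsf9* had adjusted exact permutation p-values of 0.48 and 0.8.

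**Figure D4:**
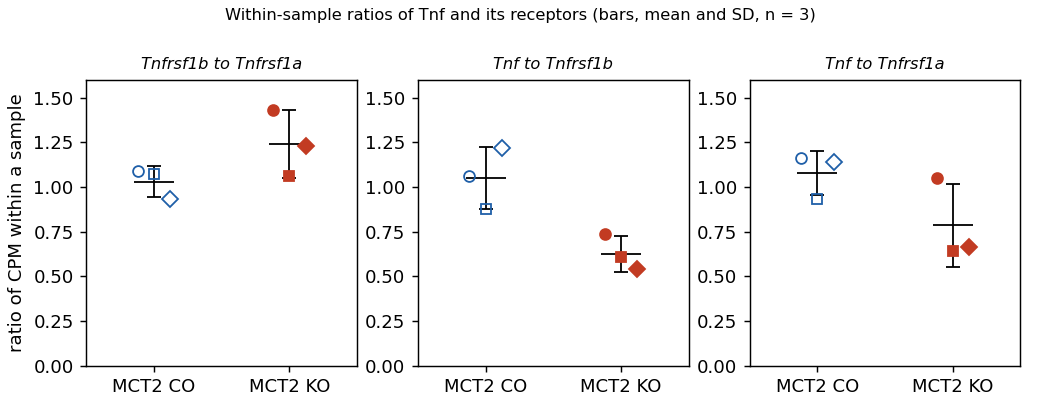
Ratios of CPM within a sample among *Tnf*, *Tnfrsf1a* and *Tnfrsf1b*, with 1 point per sample (circle, square and diamond for replicates 1 to 3), a line at the group mean and bars of 1 SD (n = 3). The ratio of *Tnf* to *Tnfrsf1b* is 0.877 to 1.22 in MCT2 CO and 0.539 to 0.734 in MCT2 KO.

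*Tnfrsf14* encodes HVEM, the receptor of LIGHT and of the inhibitory lymphocyte receptor BTLA. It was measured at 23.9, 26.5 and 17.4 CPM in MCT2 CO and at 35.1, 24.9 and 40.2 CPM in MCT2 KO. MCT2 KO replicates 1 and 3 were the highest samples, while replicate 2 lay within the MCT2 CO range. In edgeR the log2 fold change was 0.56 (SE 0.21, unadjusted p = 0.0265, adjusted p = 0.491), and the exact two-sided permutation p was 0.2. Its ligand *Tnfsf14* was measured at 5 to 7.68 CPM in MCT2 CO and 3.32 to 6.83 CPM in MCT2 KO. Omitting single samples gave *Tnfrsf14* log2 fold changes of 0.40 to 0.73.

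*Tnfrsf25* encodes DR3, a death-domain receptor of TL1A that is carried mainly by T cells and innate lymphocytes. It was measured at 1.4, 1.58 and 2.41 CPM in MCT2 CO and at 0.839, 0.399 and 0.643 CPM in MCT2 KO. All MCT2 KO samples lay below all MCT2 CO samples, and MCT2 CO replicate 3 was the highest. In edgeR the log2 fold change was -1.53 (SE 0.36) with an unadjusted p of 0.00261, and the adjusted p was 0.370, against 0.416 in limma-voom and 0.0551 in DESeq2 run on all genes that had any count. The values rest on 41 to 64 counts in MCT2 CO and 13 to 20 counts in MCT2 KO. Omitting MCT2 CO replicate 3 gave -1.27, and omitting MCT2 KO replicate 2 as well gave -1.0.

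Markers of T cells and NK cells, cells that can carry DR3, were examined beside *Tnfrsf25*. All 10 T-cell markers passed the filter, 5 with a log2 fold change above 0 and 5 below, and they summed to 42.6, 61.5 and 48.5 CPM in MCT2 CO and 57.0, 14.9 and 79.1 CPM in MCT2 KO. MCT2 KO replicate 2 had both the lowest T-cell sum and the lowest *Tnfrsf25*, and MCT2 KO replicate 3 had the highest T-cell sum. *Foxp3*, the regulatory T-cell factor in this list, had a log2 fold change of -0.60 (SE 0.24, edgeR adjusted p = 0.502) and was the T-cell marker at an unadjusted p under 0.05. However, 37.21% of its exonic bases lie inside the spans of *Ccdc22* and *Ppp1r3f*. The 8 NK-cell markers, all above the filter, summed to 53.8 to 93.6 CPM in MCT2 CO and 65.5 to 130 CPM in MCT2 KO, and 5 of them had a log2 fold change below 0. *Ncr1*, *Klrb1c* and *Gzma* were lower in MCT2 KO without overlap, against 8.77% of all genes, with log2 fold changes of -0.51, -0.70 and -1.09. By contrast, *Prf1* and *Gzmb*, at 1.12 and 0.64, raised the sum. Of the exonic bases of *Klrb1c*, 39.21% lie inside the span of *Gm44511*. The part of T-cell and NK-cell content in the *Tnfrsf25* values was not tested. *Tnfsf15*, the ligand of DR3, was measured at 2.22 to 4.17 CPM in MCT2 CO and 2.52 to 5.66 CPM in MCT2 KO.

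*Tnfrsf4* and *Tnfrsf18* encode costimulatory receptors of T cells. *Tnfrsf4* (OX40) was measured at 2, 2.96 and 1.99 CPM in MCT2 CO and at 2.64, 0.921 and 3.66 CPM in MCT2 KO. *Tnfrsf18* (GITR) was measured at 4.64, 6.08 and 5.27 CPM in MCT2 CO and at 6.08, 2.61 and 5.94 CPM in MCT2 KO. Both receptors were lowest in MCT2 KO replicate 2, the sample with the lowest T-cell sum, and their groups overlapped, with log2 fold changes of 0.04 (SE 0.45) and -0.14 (SE 0.31). The part of T-cell content in these values was not tested. Reads of *Tnfrsf18* may be shared with *Gm16008*, which holds 18.7% of its 50-base words.

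The TRAIL receptors comprise *Tnfrsf10b*, which carries a death domain, and the decoys *Tnfrsf22* and *Tnfrsf23*. *Tnfrsf10b* was measured at 64.9 to 74.5 CPM in MCT2 CO and 57.2 to 69.6 CPM in MCT2 KO, with a log2 fold change of -0.11 (SE 0.10). *Tnfrsf22* was measured at 6.87, 8.77 and 16.8 CPM in MCT2 CO and at 6.83, 6.35 and 6.79 CPM in MCT2 KO. The groups did not overlap, but MCT2 CO replicate 1 and MCT2 KO replicate 1 differed by little and MCT2 CO replicate 3 stood apart. The log2 fold change of *Tnfrsf22* was -0.70 (SE 0.31, edgeR adjusted p = 0.539), and it was -0.23 without MCT2 CO replicate 3. *Tnfrsf23* was measured at 34.7, 39.3 and 54.9 CPM in MCT2 CO and at 39.1, 35.0 and 41.5 CPM in MCT2 KO, again with MCT2 CO replicate 3 the highest, and had a log2 fold change of -0.16 (SE 0.17). The ratio of *Tnfrsf23* to *Tnfrsf22* was 3.27 to 5.05 in MCT2 CO and 5.50 to 6.11 in MCT2 KO (exact permutation p = 0.1, adjusted 0.3). Of the 50-base words of *Tnfrsf22*, 27.4% occur in other genes, mainly *Tnfrsf23*, so the split of reads between these decoys is uncertain.

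The other receptors had overlapping groups. Their log2 fold changes were 0.42 (SE 0.28) for *Tnfrsf26*, 0.31 (SE 0.27) for *Tnfrsf8* and -0.03 (SE 0.16) for *Tnfrsf21*. *Tnfrsf26* was measured at 1.23 to 2.73 CPM and *Tnfrsf8* at 0.978 to 1.75 CPM over the 6 samples, and *Tnfrsf21*, a death-domain receptor, was measured at 22.5 to 22.9 CPM in MCT2 CO and 17.9 to 28.0 CPM in MCT2 KO.

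The highest and lowest levels of the members fell most often in a pair of MCT2 KO samples. MCT2 KO replicate 1 had the highest level for 5 of 10 ligands and 6 of 15 receptors, against 20.4% of all genes. MCT2 KO replicate 2 had the lowest level for 4 of 10 ligands and 7 of 15 receptors, against 22.7% of all genes. Macrophage markers had their highest sum, 9001 CPM, in MCT2 KO replicate 1 and summed to 5918 CPM in MCT2 KO replicate 2. Their sums were lower still in MCT2 CO replicates 2 and 3, at 5659 and 4910 CPM. The part of macrophage content in these extremes was not tested.

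**Figure D5:**
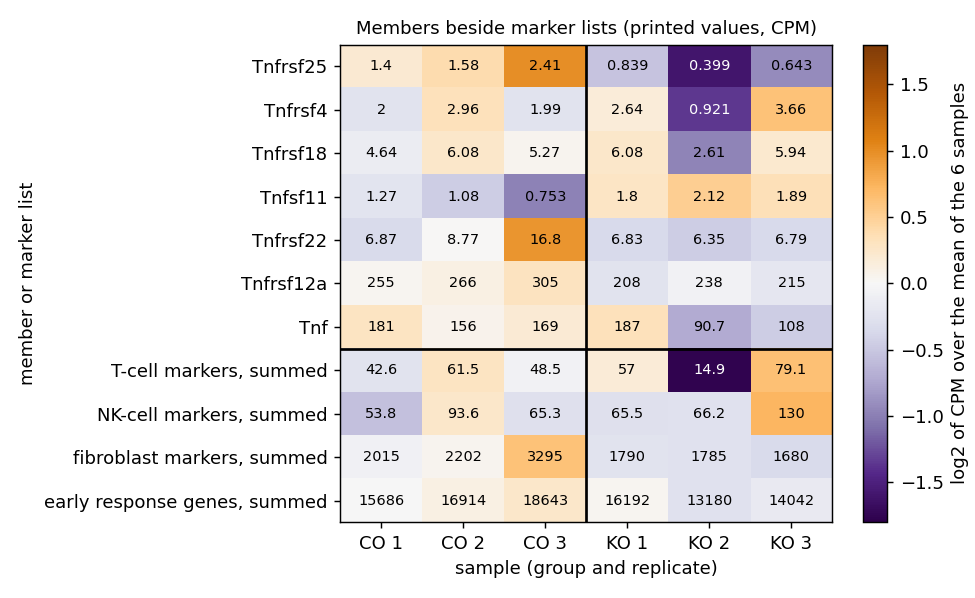
Members with non-overlapping groups, *Tnf* and the T-cell receptors *Tnfrsf4* and *Tnfrsf18* beside summed marker lists in the 6 samples, with printed CPM and coloured by the log2 of CPM over the mean of the 6 samples. *Tnfrsf25* is below its mean in all 3 MCT2 KO samples, and the T-cell sum is low in MCT2 KO replicate 2 (14.9 CPM) and high in MCT2 KO replicate 3 (79.1 CPM). The early response sum includes heat shock genes.

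Superfamily genes with other names included none at an unadjusted p under 0.05. Of 6 such ligands, *Ltb* (lymphotoxin beta), *Fasl* and *Eda* passed the filter, with log2 fold changes of -0.21 (SE 0.34), 0.28 (SE 0.77) and 0.03 (SE 0.26). Of 8 receptors, 5 passed, and their log2 fold changes were 0.17 (SE 0.23) for *Cd40*, 0.04 (SE 0.19) for *Fas*, 0.12 (SE 0.09) for *Ltbr*, -0.13 (SE 0.10) for *Relt* and -0.13 (SE 0.11) for *Eda2r*. *Cd27* had 0 counts in all samples and lies wholly inside the span of *Vamp1*.

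Downstream of the receptors, 1 of 18 adaptor and death-domain genes was at an unadjusted p under 0.05, against 9.37% of all genes. *Tab1*, a subunit of the TAK1 kinase complex, was measured at 22.7, 22.5 and 22.2 CPM in MCT2 CO and at 27.7, 25.5 and 27.6 CPM in MCT2 KO, without overlap. Its log2 fold change was 0.26 (SE 0.08, edgeR adjusted p = 0.438). The list had a median log2 fold change of -0.03 (8 above 0 and 10 below), with all 18 genes above the filter.

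The 14 genes of the NF-kB core and its inhibitors were all above the filter. At an unadjusted p under 0.05 stood 1 of them, against 9.37% of all genes. This was *Nfkbib* (I-kappa-B beta). It was measured at 130, 133 and 134 CPM in MCT2 CO and at 129, 79.4 and 92.1 CPM in MCT2 KO, without overlap and with a log2 fold change of -0.40 (SE 0.16, edgeR adjusted p = 0.513). MCT2 KO replicates 2 and 3 were low and replicate 1 was close to MCT2 CO, and 35.04% of the gene's exonic bases lie in spans of other genes. *Ikbkg* (NEMO) did not overlap between groups, at 39.0 to 43.1 CPM in MCT2 CO and 43.2 to 51.7 CPM in MCT2 KO, with a log2 fold change of 0.22 (SE 0.10, edgeR adjusted p = 0.537). Of the 14, 1 was thus higher and 1 lower without overlap, against 7.07% and 8.77% of all genes. The TNF-induced inhibitors *Nfkbia* and *Tnfaip3* had log2 fold changes of 0.04 (SE 0.15) and -0.10 (SE 0.25).

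Among the proteins that process or restrain the ligands, 5 of 6 passed the filter. *Adam17*, the protease that releases TNF from the cell surface, had a log2 fold change of 0.16 (SE 0.14). *Rhbdf1*, which supports ADAM17 maturation, was measured at 67.5, 83.6 and 74.3 CPM in MCT2 CO and at 60.1, 64.7 and 60.7 CPM in MCT2 KO. It was lower without overlap, as were 8.77% of all genes, with a log2 fold change of -0.28 (SE 0.10, edgeR adjusted p = 0.466). Of the 5 genes, 4 had a log2 fold change above 0 and 1 below. *Rhbdf2* was at 0.19 (SE 0.24), *Furin* at 0.14 (SE 0.16) and *Adam10* at 0.06 (SE 0.09). *Timp3*, an inhibitor of ADAM17, had 0 counts in all samples and lies wholly inside the span of *Syn3*.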

How the data were processed

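The authors made poly-A stranded libraries (TruSeq, Illumina HiSeq) and, per the labels, used FastQC 0.12.0, MultiQC 1.28 and STAR 2.7.11b on GRCm38, and deposited raw counts per gene from featureCounts 2.1.1, with no normalization and no pooling; annotation, feature type and strand setting are not given in the sources used here. Gene lengths in the deposited table are whole gene spans, and positions match GENCODE M21 for 2.4% of genes, so printed positions are those of GENCODE M21. Groups came from the sample titles.

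Counts were tested with edgeR 4.0.16 (quasi-likelihood test, TMM, filterByExpr with a minimum count of 10 and total of 15, Benjamini-Hochberg adjustment over the 13485 genes kept; R 4.3.3, limma 3.58.1), without covariates. A call needed an adjusted p not above 0.05 with a log2 fold change of 0.58 or more in size. DESeq2 1.42.0, limma-voom, other normalizations and filters, a replicate block and each sample left out were alternatives. Single values were given an exact permutation test (two-sided), for which 0.1 is the lowest p. The within-sample ratios were added after the counts were seen. Sequences and motifs came from RefSeq promoter windows.

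On simulated counts with 13384 genes, edgeR recovered 80.7% of genes changed by a log2 fold of 1 and 98.9% of those changed by 2, with 7.29% of calls false. Changes were placed only in genes above 1 CPM, and noise was drawn independently for each gene. Shifts that many genes of a sample share were absent, so these rates need not hold in the data. In the data edgeR did not call *Slc16a7*, with a log2 fold change of -1.05. The members and gene lists were chosen with earlier results of these data known. All members are named; sample values are given for members at an unadjusted p under 0.05, without overlap, or among the 3 highest ligands or receptors by CPM.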

Additional observations from a re-analysis of the deposited data

How the results depend on the processing

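No alternative called a member and no member at an unadjusted p under 0.05 in edgeR turned its sign. A log2 fold change of the other sign was found under at least 1 alternative for 11 of the 25 members tested, most often for *Tnfsf9* (8 of 15 alternatives) and *Tnfrsf4* (6 of 15). Over all genes the count of calls was 0 in the edgeR test, 79 in DESeq2 on the same genes, 95 in DESeq2 and 2 in edgeR without the filter on low counts, and 0 to 2 with each sample left out in turn. Leaving out MCT2 CO replicate 3 and MCT2 KO replicate 2 together, chosen after seeing the data, gave 10. At an unadjusted p under 0.05 the counts were 1264 genes, 1 ligand, 3 receptors, 1 adaptor gene, 1 NF-kB gene and 1 sheddase gene. *Tnfsf11* and *Tnfrsf25* were at an unadjusted p under 0.05 in 15 of 15 alternatives, *Tnfrsf12a* in 13, *Tnfrsf14* in 10 and *Tnfrsf22* in 5. The median log2 fold change ranged from -0.07 to 0.22 for ligands and from -0.10 to 0.11 for receptors with each sample left out in turn, and limma-voom gave -0.11 for receptors.

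The replicate numbers of the titles gave no sign of pairing: the deviations of same-numbered samples from their group means correlated at 0.216, -0.247 and -0.161. Deviations from a mean of 3 samples are tied to each other, so these values cannot exclude pairing. With the replicate number as a block, edgeR called 0 genes, and 2 ligands and 2 receptors were at an unadjusted p under 0.05.

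With 3 samples a group, differences smaller than the spread between samples were not detectable. Larger differences without overlap also went uncalled in edgeR, such as *Slc16a7* at a log2 fold change of -1.05 and *Tnfrsf25* at -1.53. Counting error is small for *Tnf* and the main receptors and large for members under about 1 CPM, where 3 counts correspond to 0.0921 to 0.126 CPM. Genes inside other spans (*Tnfsf12*, *Tnfsf13*, *Tnfrsf9*) could not be assessed.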
